A study of Homo sapiens with 12 samples.

Results

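The genes described here are 48 genes of the G1/S transition and of DNA replication, taken by symbol from a list and sorted by what their proteins do: origin licensing, activation of the replicative helicase, polymerases, the sliding clamp and its loader, single-strand binding, nucleotide supply, E2F and cyclin E, Okazaki fragment processing with repair, and histone supply. All 48 were measured, of 11963 genes in all, each through its brightest probe set by the mean of 12 arrays. The study measured RNA of K562, an established human cell line from a chronic myeloid leukaemia in blast crisis, which the labels call an AML line, on Affymetrix arrays. All groups were treated with Wnt3a (100 ng/ml, recombinant, without serum), and RNA was taken after 8 h, so the data hold no sample without Wnt3a. The groups had 3 arrays each. The empty vector group received pEGFP-C2 and the overexpression group pEGFP-CXXC5, both by nucleofection, which makes expression transient and leaves cells that took up no plasmid in the sample. The scrambled shRNA group and the CXXC5 knockdown group were infected with lentiviral pLKO vectors and were stable lines. A pair of CXXC5 shRNA clones, TRCN0000144558 and TRCN0000142729, is named for the knockdown without saying which array carried which. The overexpression was compared with its empty vector and the knockdown with its scrambled control. Scrambled shRNA against empty vector and knockdown against empty vector were also compared, and there the construct, the delivery and the stable or transient state cannot be told apart.

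Before S phase, the origin recognition complex, CDC6 and CDT1 load the MCM2 to MCM7 helicase onto origins. Cyclin E with its kinase then helps to fire origins, and it relieves E2F factors of RB, so that E2F drives many of the genes named here. CDC45, MCM10 and the GINS complex turn the loaded helicase on, polymerases copy the strands under the PCNA clamp, RPA covers single strands, and ribonucleotide reductase with thymidylate enzymes supplies the nucleotides. K562 cells cycle fast, and their identity as erythroleukaemia cells rests on globins, the transferrin receptor and erythroid factors such as GATA1. CXXC5 is a CXXC zinc finger protein that binds CpG-rich DNA and is known to inhibit Wnt signalling through Dishevelled.

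The arrays were alike in scale, with medians between 6.65 and 6.71 log2 over all probe sets and within-group correlations of 0.996 to 0.998 across genes. Of 14 K562 erythroleukaemia markers, which hold BCR and ABL1 beside erythroid genes, 10 were measured and 9 lay above the median level of all genes. Of the 10, 3 passed the test described below with overexpression (6.98% of all genes did) and 6 with knockdown against scrambled shRNA (14% did). With overexpression HBE1 and TFRC rose and HBZ fell. With knockdown against scrambled shRNA, GATA1 and BCR rose and HBE1, HBZ, TFRC and ALAS2 fell. The controls differed too: scrambled shRNA was called lower than empty vector for GATA1 and BCR and higher for HBE1, HBZ and TFRC. Against empty vector, knockdown was called higher for HBZ (means of 12.60 and 12.22 log2) and lower for ALAS2. It was called for neither GATA1, BCR, HBE1 nor TFRC there. The part of these changes in the results was not tested. The lymphoid, monocyte and fibroblast lists had 1 of 11, 2 of 7 and 2 of 9 measured markers above that median, among them CD3D, LYZ, ITGAM, FN1 and COL1A1. Of 6 epithelial genes 4 lay above it (KRT8, KRT18, KRT19 and EPCAM), while CDH1 and KRT5 were low. None of the probe sets used was paired with CXXC5, so the groups are called by their labels and were not checked against the targeted gene. Scrambled shRNA replicate 3 stood apart: its 3′ to 5′ difference for GAPDH, a sign of RNA or labelling quality, was 0.87 log2, while the 11 others ran from 0.227 to 0.335. Over the 48 genes its values departed from each gene's mean with an SD of 0.201 log2, against 0.0778 to 0.114 in the other arrays. Leaving it out turned the sign of 5 of 48 knockdown differences against scrambled shRNA, and 24 in all turned or moved by over 1.5 times. Such differences are marked below where they are printed. Nothing in the labels says that replicates were grown apart. The p-values therefore reflect only how much these arrays vary within a group, a variation that could be technical.

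Promoter sequences of the 48 genes were looked up in RefSeq (GRCh38.p14), from 250 bases before to 50 bases after the start, and 43 matched. The genes not matched were RPA2, MCM5, CCNE2, RPA3 and MCM4. E2F forms were searched on both strands as TTTCCCGC, TTTCGCGC, TTTGCCGC and TTTGGCGC, which can overlap each other, and were found in 20 of 43 member promoters (46.5%), in 908 of 27305 promoters in the table (3.33%) and in 467 of 9563 promoters of measured genes (4.88%). The CCAAT box stood in 58.1% of member promoters, 35.7% of all promoters and 37.3% of those of measured genes. TTTGAA, the core letters of the CHR element of G2/M genes, stood in 4.65% (2 of 43), 15.4% and 11.0%. A member promoter held a median of 31 CG dinucleotides, against 14 over all promoters and 24 over those of measured genes. Among the 11 matched members that passed a threshold below, 4 held an E2F form (36.4%), and among the other 32 members 16 did (50%). Shown here are promoters of 4 genes that passed in several comparisons, RRM2, GINS3, SLBP and RPA1, and of TYMS, the thymidylate synthase gene, which had the highest p of the 48 in the test over the 4 groups. They lie at chr2:10122489-10122788 (plus strand), chr16:58392221-58392520 (plus strand), chr4:1712270-1712569 (minus strand), chr17:1829755-1830054 (plus strand) and chr18:657403-657702 (plus strand). Capitals mark an E2F form, each sequence is written 5′ to 3′ on the strand of its gene, and a match is a description of letters and not of binding.
RRM2 promoter: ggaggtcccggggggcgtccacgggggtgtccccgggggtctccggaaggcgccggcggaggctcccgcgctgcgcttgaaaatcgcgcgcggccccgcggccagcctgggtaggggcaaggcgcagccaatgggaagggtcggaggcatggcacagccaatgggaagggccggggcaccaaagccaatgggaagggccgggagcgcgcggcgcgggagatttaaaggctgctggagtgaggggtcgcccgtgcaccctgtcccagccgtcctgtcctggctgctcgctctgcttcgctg
GINS3 promoter: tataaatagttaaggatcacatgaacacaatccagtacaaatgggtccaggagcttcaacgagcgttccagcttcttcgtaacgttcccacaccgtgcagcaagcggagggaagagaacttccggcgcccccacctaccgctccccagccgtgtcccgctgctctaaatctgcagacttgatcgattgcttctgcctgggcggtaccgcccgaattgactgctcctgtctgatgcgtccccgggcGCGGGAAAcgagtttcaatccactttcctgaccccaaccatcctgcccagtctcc
SLBP promoter: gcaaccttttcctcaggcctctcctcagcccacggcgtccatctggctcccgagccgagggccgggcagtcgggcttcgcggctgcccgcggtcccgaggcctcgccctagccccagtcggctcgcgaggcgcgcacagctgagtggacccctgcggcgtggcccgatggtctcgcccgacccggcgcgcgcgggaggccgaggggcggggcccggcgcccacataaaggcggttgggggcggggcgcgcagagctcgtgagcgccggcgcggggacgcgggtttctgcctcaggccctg
RPA1 promoter: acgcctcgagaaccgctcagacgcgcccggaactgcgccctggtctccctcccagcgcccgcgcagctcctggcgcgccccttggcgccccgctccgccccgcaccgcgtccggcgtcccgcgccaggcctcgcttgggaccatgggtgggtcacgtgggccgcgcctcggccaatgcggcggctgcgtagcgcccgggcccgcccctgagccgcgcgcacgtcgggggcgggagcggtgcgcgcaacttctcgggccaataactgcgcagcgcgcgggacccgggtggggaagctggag
TYMS promoter: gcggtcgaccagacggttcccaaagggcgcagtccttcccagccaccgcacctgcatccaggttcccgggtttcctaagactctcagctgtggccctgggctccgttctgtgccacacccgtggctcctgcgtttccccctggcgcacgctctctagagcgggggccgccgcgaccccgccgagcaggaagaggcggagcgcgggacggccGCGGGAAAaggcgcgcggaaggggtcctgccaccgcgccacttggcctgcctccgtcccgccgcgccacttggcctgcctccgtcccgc
The RRM2 promoter held no E2F form but 3 CCAAT boxes, at -123, -93 and -66 from the start. GINS3 and TYMS each held 1 form, TTTCCCGC on the opposite strand, at -5 and at -39. SLBP held neither an E2F form nor a CCAAT box, and RPA1 held 2 CCAAT boxes.

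Most of the 48 genes sat within a narrow range. The group means of a member spanned a median of 0.17 log2, against 0.25 over all genes, and the SD within groups was a median of 0.073 log2 for members and 0.11 for all genes. All 48 probe sets were brighter than the median gene, where arrays of this kind measure more precisely. A moderated F test in limma over the 4 groups passed an adjusted p of 0.05, the threshold used throughout with Benjamini-Hochberg adjustment over all genes, for 9 of 48 members (18.8%) and for 33.2% of all genes, so the members' share lay below the background. The 9 were RRM2, SLBP, GINS3, POLA2, CCNE2, MCM10, RPA1, CCNE1 and CDC45. By role they were 3 of 5 genes of helicase activation, 2 of 4 of E2F and cyclin E, 1 of 7 polymerase, 1 of 3 RPA, 1 of 5 nucleotide and 1 of 4 histone genes, and none of 10 licensing, 6 clamp and 4 Okazaki fragment and repair genes.

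**Figure D1:**
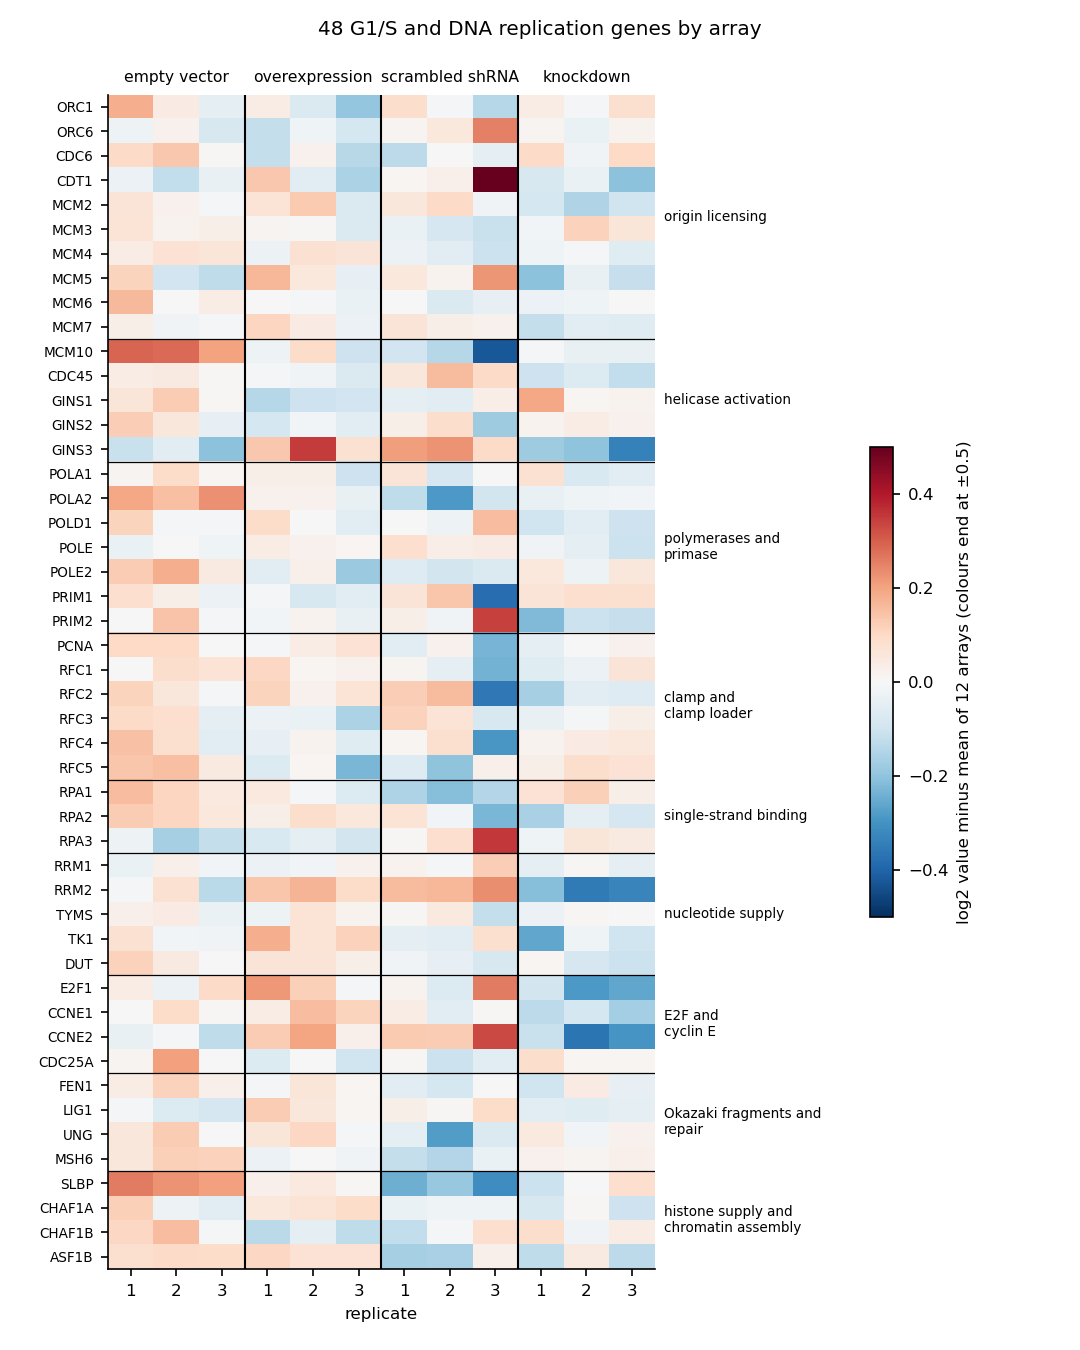
Each row is 1 of the 48 genes, sorted by role, and each column 1 of the 12 arrays. Colour is the log2 value minus the gene's mean over the 12 arrays. RRM2, CCNE2 and GINS3 are low in the 3 knockdown arrays, SLBP and MCM10 are high in the 3 empty vector arrays, and scrambled shRNA replicate 3 departs from its group for many genes.

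With CXXC5 overexpression 1 of 48 members rose and none fell at an adjusted p under 0.05, which is 2.08% against 6.98% of all genes (3.61% higher and 3.37% lower). The 48 differences ran from -0.27 to 0.31 log2 with a median of -0.036 (all genes 0.0013). Of them 10 had an unadjusted p under 0.05, beside 2442 of 11963 genes, which is a similar share. With CXXC5 knockdown against scrambled shRNA, 2 rose and 4 fell, which is 12.5% against 14% of all genes (8.79% higher and 5.22% lower). Those differences ran from -0.48 to 0.24 log2 with a median of 0.0017 (all genes -0.0091). The scrambled shRNA arrays were higher than empty vector for 4 members and lower for 6, 20.8% against 31.5% of all genes (16.2% higher and 15.3% lower). Knockdown against empty vector gave 0 higher and 2 lower members, 4.17% against 4.54% of all genes (3.02% higher and 1.52% lower). In each of these comparisons the members' share past the threshold was at or below that of all genes, as the plot of shares shows. Groups did not overlap for 37.5% of members with overexpression (27.9% of all genes), 50% with knockdown (32.4%) and 47.9% between the controls (45.7%). The sizes can also be bounded. For overexpression, 95% intervals of all 48 members lay within 1.5-fold either way, as did those of 11322 of 11963 genes. For knockdown against scrambled shRNA those of 45 members and of 10969 genes did. All member intervals in these comparisons lay within 2-fold, as did those of 11897 genes with overexpression and 11863 with knockdown. Most genes of the array were thus bounded in the same way.

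**Figure D2:**
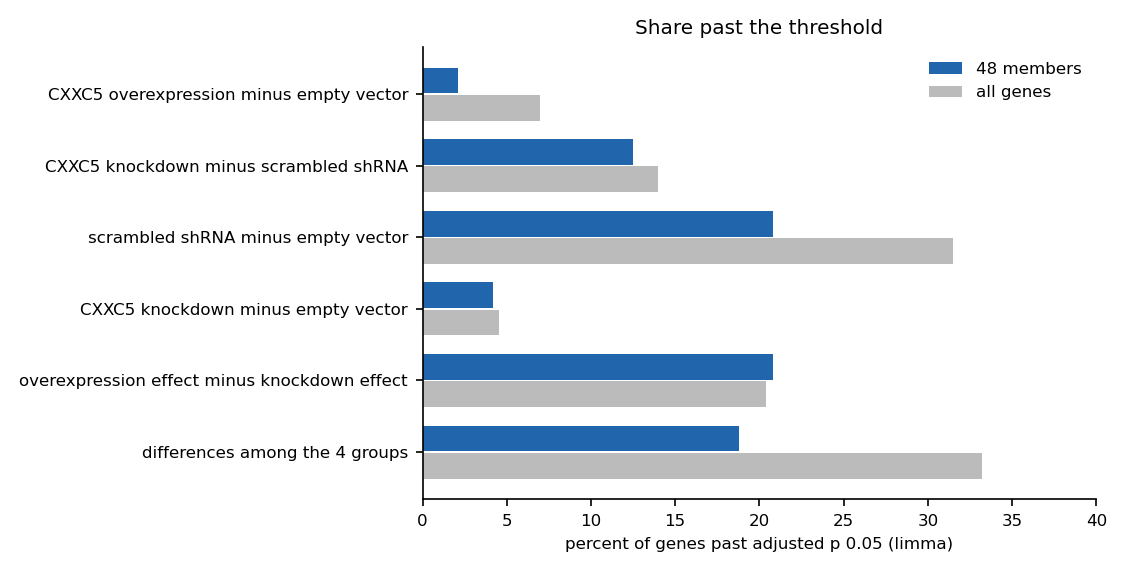
Horizontal bars give the percent of the 48 members (blue) and of all genes (grey) past an adjusted p of 0.05 in limma, for each comparison. The members' bar is at or below that of all genes except for the difference of the effects, where it is 20.8% against 20.4%.

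Whether overexpression and knockdown moved a gene differently was tested as the overexpression effect minus the knockdown effect. That difference passed for 10 members, 3 of them positive and 7 negative, which is 20.8% against 20.4% of all genes (8.15% positive and 12.3% negative). Positive were GINS3, RRM2 and CCNE2, and negative were MCM10, SLBP, RPA1, RFC5, POLA2, POLE2 and MSH6. The split depends on scaling: with quantile normalization 8 were positive and 3 negative, and with arrays centred on their medians 6 and 4. The calls of GINS3, RRM2, MCM10, SLBP and RPA1 held under all 20 alternatives run. That of CCNE2 (0.62 log2, limma adjusted p = 0.00259) depends on the probe set. Its other probe set gave -0.080 log2, and the mean of both gave 0.27 log2 (adjusted p = 0.189).

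**Figure D3:**
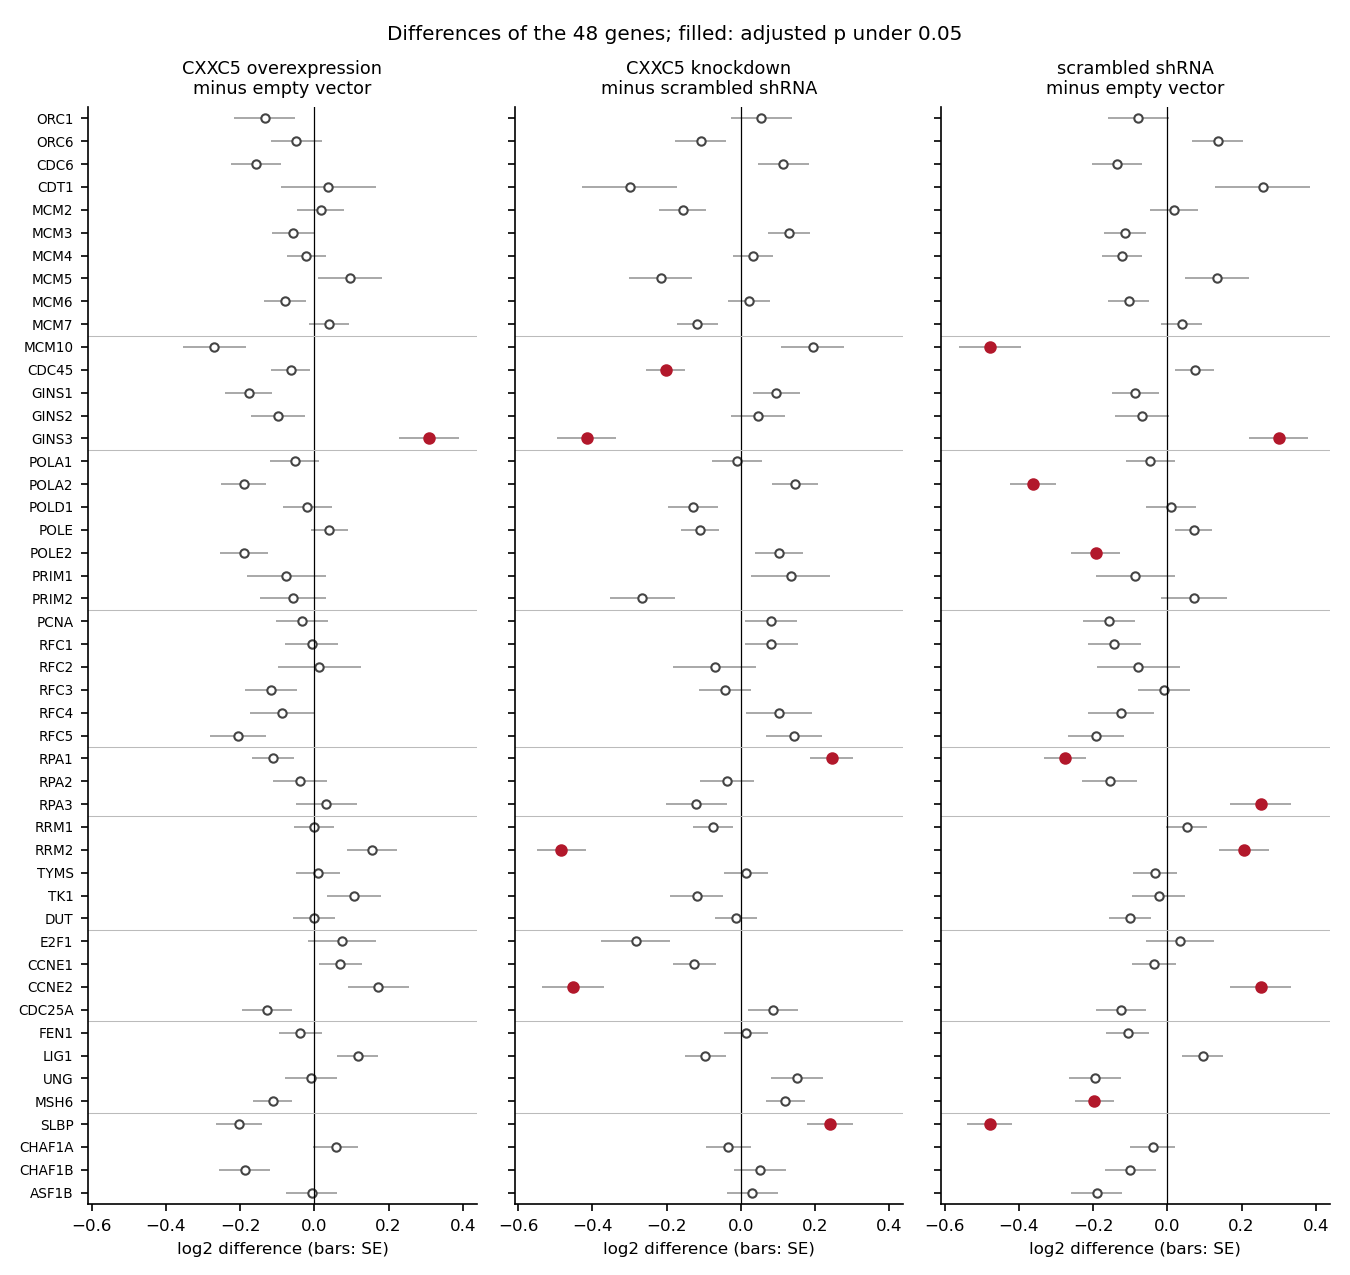
Points are log2 differences of the 48 members, sorted by role, in 3 comparisons, bars are SE from limma, and filled points passed an adjusted p of 0.05. In the knockdown comparison RRM2, CCNE2, GINS3 and CDC45 lie below 0 and RPA1 and SLBP above it, while in the overexpression comparison GINS3 alone passed.

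Among the genes of helicase activation, GINS3, a subunit of the GINS complex, passed in both CXXC5 comparisons. Its log2 values were 8.27, 8.33 and 8.18 in the empty vector arrays, 8.52, 8.73 and 8.46 in the overexpression arrays, 8.59, 8.61 and 8.48 in the scrambled shRNA arrays and 8.21, 8.18 and 8.05 in the knockdown arrays. The overexpression arrays all lay above the empty vector arrays, the knockdown arrays all lay below the scrambled shRNA arrays, and the empty vector and knockdown arrays overlapped. GINS3 rose 1.24-fold with overexpression (0.31 log2, SE 0.081, 95% interval 0.13 to 0.49, limma adjusted p = 0.0393) and fell with knockdown (-0.42 log2, SE 0.081, 95% interval -0.59 to -0.24, limma adjusted p = 0.0049). It was also higher with scrambled shRNA than with empty vector (0.30 log2, adjusted p = 0.0146), and knockdown against empty vector gave -0.12 log2 without passing. The effects of overexpression and knockdown differed by 0.73 log2 (adjusted p = 0.000861). The other GINS3 probe set gave 0.32 log2 for overexpression and -0.45 log2 for knockdown. Between the controls it gave 0.17 log2, which did not pass (limma adjusted p = 0.111). For knockdown against empty vector it gave -0.28 log2. Its knockdown arrays (8.06, 7.88 and 7.97) all lay below its empty vector arrays (8.29, 8.30 and 8.15), so the overlap of these groups depends on the probe set. The overexpression call depended on single arrays: it ended without any of empty vector replicates 1, 2 and 3, overexpression replicates 1 and 2, scrambled shRNA replicates 1 and 2 or knockdown replicate 2, with differences of 0.23 to 0.34 log2 and adjusted p of 0.0523 to 0.143. The higher level with scrambled shRNA no longer passed without empty vector replicate 3 or scrambled shRNA replicate 2 (0.26 to 0.28 log2, adjusted p 0.0502 to 0.054), whereas the fall with knockdown held in all 21 alternatives.

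MCM10, which recruits polymerase alpha and helps to activate the helicase, differed between the controls. Its values were 10.15, 10.14 and 10.06 in the empty vector arrays, 9.84, 9.96 and 9.76 in the overexpression arrays, 9.77, 9.72 and 9.44 in the scrambled shRNA arrays and 9.86, 9.82 and 9.83 in the knockdown arrays. Every empty vector array lay above all 9 others. MCM10 was 1.39-fold lower with scrambled shRNA than with empty vector (-0.48 log2, SE 0.084, 95% interval -0.66 to -0.29, limma adjusted p = 0.00137), while overexpression gave -0.27 log2, adjusted p = 0.0808 and knockdown against scrambled shRNA gave 0.19 log2, adjusted p = 0.157, neither past the threshold. Without scrambled shRNA replicate 3, which read 9.44, the knockdown difference was 0.092 log2 (adjusted p = 0.432 in limma). CDC45, a subunit of the active helicase, read 10.68, 10.68 and 10.65 in the empty vector arrays, 10.63, 10.62 and 10.57 in the overexpression arrays, 10.70, 10.80 and 10.74 in the scrambled shRNA arrays and 10.54, 10.57 and 10.52 in the knockdown arrays. Its scrambled shRNA arrays were the highest and did not overlap any other group. CDC45 fell 1.15-fold with knockdown (-0.20 log2, SE 0.052, 95% interval -0.32 to -0.088, limma adjusted p = 0.0228), a call that ended without scrambled shRNA replicate 2, knockdown replicate 1 or knockdown replicate 3 (-0.20 to -0.18 log2, adjusted p 0.0659 to 0.085). Over the 4 groups its call ended when any of the 12 arrays was left out (adjusted p 0.0502 to 0.118). GINS1 and GINS2, subunits of the same complex as GINS3, passed in no comparison. Their knockdown differences were 0.096 and 0.046 log2, the latter -0.033 and so on the other side of 0 without scrambled shRNA replicate 3, and their overexpression differences -0.18 and -0.098 log2.

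**Figure D4:**
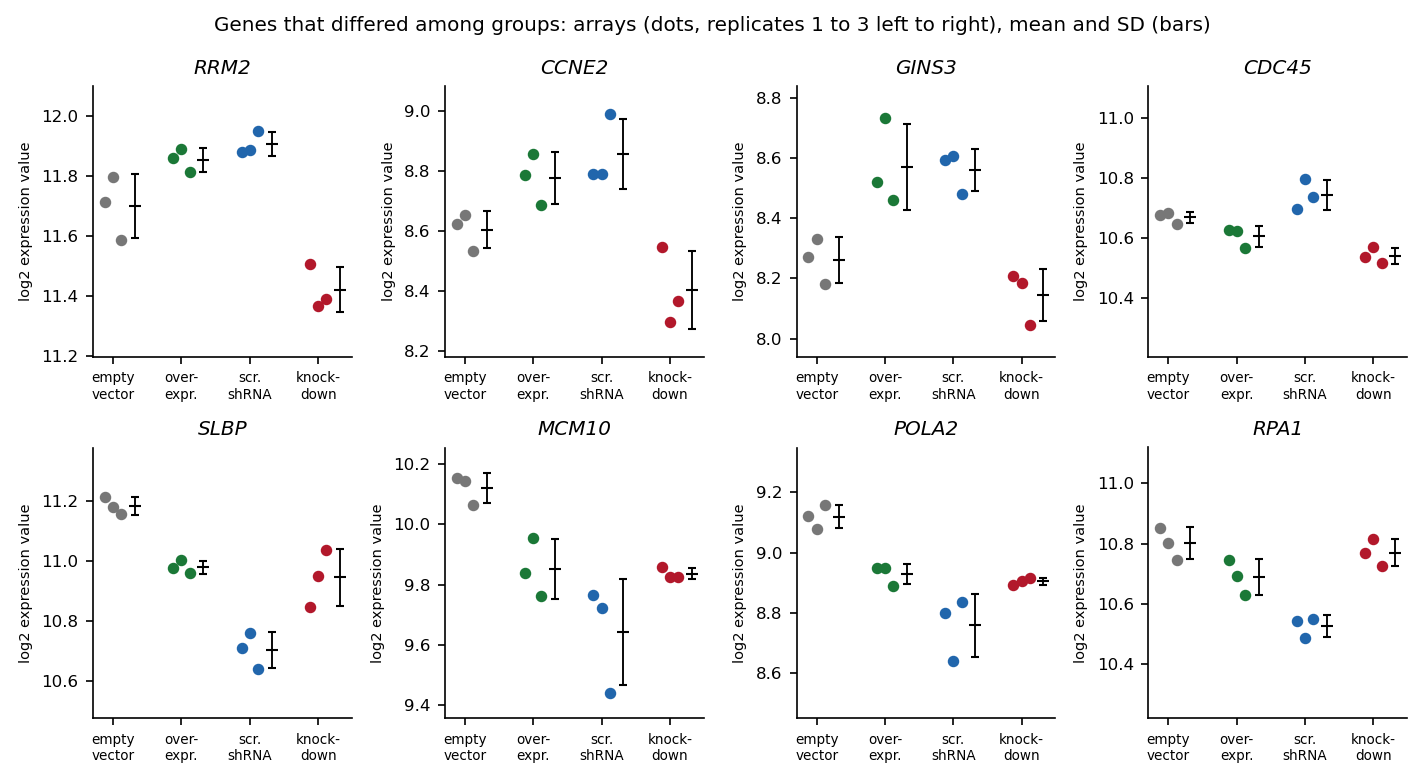
Each of 8 panels plots the log2 value of 1 gene on the 12 arrays by group, with the group mean and SD as bars. The RRM2 values of the 3 knockdown arrays lie below those of the 9 other arrays, and the SLBP values of the 3 empty vector arrays lie above those of the 9 others.

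In nucleotide supply, RRM2, the small subunit of ribonucleotide reductase whose synthesis peaks in S phase, fell with knockdown. It read 11.71, 11.80 and 11.59 in the empty vector arrays, 11.86, 11.89 and 11.81 in the overexpression arrays, 11.88, 11.89 and 11.95 in the scrambled shRNA arrays and 11.51, 11.37 and 11.39 in the knockdown arrays. All knockdown arrays lay below the other 9 arrays, and the overexpression and scrambled shRNA arrays overlapped. RRM2 fell 1.40-fold with knockdown (-0.48 log2, SE 0.066, 95% interval -0.63 to -0.34, limma adjusted p = 0.000622), a call that held in all 21 alternatives. Knockdown was also below empty vector (-0.28 log2, adjusted p = 0.038), without passing when any of 7 arrays was left out: empty vector replicates 1 and 2, overexpression replicate 2, scrambled shRNA replicates 1 and 2 and knockdown replicates 2 and 3 (-0.28 to -0.23 log2, adjusted p 0.0505 to 0.157). Overexpression gave 0.16 log2, adjusted p = 0.209, and the effects differed by 0.64 log2 (adjusted p = 0.000564). Scrambled shRNA was above empty vector (0.21 log2, adjusted p = 0.0333), without passing when any of empty vector replicates 1 and 3 or scrambled shRNA replicates 1, 2 and 3 was left out (0.15 to 0.22 log2, adjusted p 0.0522 to 0.126). A second RRM2 probe set gave -0.21 log2 for knockdown against scrambled shRNA. The large subunit RRM1, with group means of 11.74 ± 0.030 with the empty vector, 11.74 ± 0.026 with overexpressed CXXC5, 11.80 ± 0.069 with the scrambled shRNA and 11.72 ± 0.030 with CXXC5 knockdown (SD, n = 3), passed in no comparison. Thymidylate synthase (TYMS), thymidine kinase (TK1) and dUTPase (DUT) passed in none either, with knockdown differences of 0.015, -0.12 and -0.013 log2 and overexpression differences of 0.0094, 0.11 and -0.00077 log2. Their knockdown differences without scrambled shRNA replicate 3 were -0.033, -0.074 and -0.031 log2, which puts TYMS on the other side of 0. A dimmer DUT probe set, with a mean of 9.72 log2, gave -0.27 log2 for knockdown against scrambled shRNA, and its knockdown arrays all lay below its scrambled shRNA arrays. Another DUT probe set gave -0.062 log2, so the size for DUT depends on the probe set.

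Of E2F and cyclin E, CCNE2, the cyclin E2 gene and a target of E2F, fell with knockdown. Its values were 8.62, 8.65 and 8.53 in the empty vector arrays, 8.79, 8.86 and 8.69 in the overexpression arrays, 8.79, 8.79 and 8.99 in the scrambled shRNA arrays and 8.55, 8.30 and 8.37 in the knockdown arrays. The knockdown arrays lay below the scrambled shRNA arrays, and they overlapped the empty vector arrays through knockdown replicate 1. CCNE2 fell 1.37-fold (-0.45 log2, SE 0.083, 95% interval -0.63 to -0.27, limma adjusted p = 0.00345). It was higher with scrambled shRNA than with empty vector (0.25 log2, adjusted p = 0.036), a call that ended without any of empty vector replicates 1, 2 and 3 or scrambled shRNA replicate 3 (0.18 to 0.28 log2, adjusted p 0.0608 to 0.122). A second, dimmer CCNE2 probe set, with a mean of 5.93 log2, ran the other way: 0.23 log2 for knockdown against scrambled shRNA, or 0.03 without scrambled shRNA replicate 3, and -0.67 log2 for scrambled shRNA against empty vector. With the mean of both probe sets the knockdown difference was -0.11 log2 (adjusted p = 0.501), so the call depends on the probe set. CCNE1, cyclin E1, passed in the test over the 4 groups alone (adjusted p = 0.0413), with means of 8.95 ± 0.051 with the empty vector, 9.02 ± 0.061 with overexpressed CXXC5, 8.92 ± 0.048 with the scrambled shRNA and 8.79 ± 0.042 with CXXC5 knockdown (SD, n = 3), and lost that call when any of 10 arrays was left out, all but overexpression replicate 1 and scrambled shRNA replicate 3 (adjusted p 0.0517 to 0.136). E2F1, the transcription factor, had means of 8.16 ± 0.063 with the empty vector, 8.24 ± 0.11 with overexpressed CXXC5, 8.20 ± 0.17 with the scrambled shRNA and 7.91 ± 0.11 with CXXC5 knockdown (SD, n = 3) and missed the threshold with knockdown (-0.28 log2, adjusted p = 0.0609), with -0.19 log2 (adjusted p = 0.184) without scrambled shRNA replicate 3. The phosphatase CDC25A, which activates the cyclin E kinase, gave 0.087 log2 with knockdown and -0.13 log2 with overexpression, and passed in no comparison. A dimmer CDC25A probe set, with a mean of 6.82 log2, gave 0.10 log2 with knockdown and -0.18 log2 with overexpression. Against empty vector it gave -0.47 log2 for scrambled shRNA and -0.37 log2 for knockdown, where the probe set used gave -0.12 and -0.037 log2. Its scrambled shRNA and knockdown arrays all lay below its empty vector arrays, so the size for CDC25A depends on the probe set.

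SLBP, which binds the stem-loop of histone mRNA and is needed for histone supply in S phase, read 11.21, 11.18 and 11.16 in the empty vector arrays, 10.98, 11.00 and 10.96 in the overexpression arrays, 10.71, 10.76 and 10.64 in the scrambled shRNA arrays and 10.85, 10.95 and 11.04 in the knockdown arrays. Empty vector arrays were the highest, scrambled shRNA arrays the lowest, and overexpression and knockdown arrays overlapped between them. SLBP was 1.39-fold lower with scrambled shRNA than with empty vector (-0.48 log2, SE 0.061, 95% interval -0.61 to -0.34, limma adjusted p = 0.000181). It rose with knockdown (0.24 log2, SE 0.061, 95% interval 0.11 to 0.37, limma adjusted p = 0.0212), a call that ended without scrambled shRNA replicate 3, knockdown replicate 2 or knockdown replicate 3 (0.19 to 0.24 log2, adjusted p 0.0535 to 0.0925). Knockdown still lay below empty vector (-0.24 log2, adjusted p = 0.0495), a call that ended when any of 11 arrays was left out, all but scrambled shRNA replicate 3 (-0.28 to -0.19 log2, adjusted p 0.0591 to 0.148). Overexpression gave -0.20 log2, adjusted p = 0.0702. The chromatin assembly genes CHAF1A, CHAF1B and ASF1B passed in no comparison, with knockdown differences of -0.034, 0.052 and 0.031 log2. Those of CHAF1B and ASF1B were 0.10 and 0.093 log2 without scrambled shRNA replicate 3.

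RPA1, the large subunit of the single-strand binding complex, read 10.85, 10.80 and 10.75 in the empty vector arrays, 10.75, 10.69 and 10.63 in the overexpression arrays, 10.54, 10.49 and 10.55 in the scrambled shRNA arrays and 10.77, 10.82 and 10.73 in the knockdown arrays. The scrambled shRNA arrays lay below the other 9 arrays. RPA1 rose 1.18-fold with knockdown (0.24 log2, SE 0.057, 95% interval 0.12 to 0.37, limma adjusted p = 0.014), where the call ended without scrambled shRNA replicate 2 or knockdown replicate 2 (0.22 log2, adjusted p 0.0527 to 0.0536). It was lower with scrambled shRNA than with empty vector (-0.28 log2, SE 0.057, 95% interval -0.40 to -0.15, limma adjusted p = 0.0037), and knockdown against empty vector gave -0.031 log2. A second RPA1 probe set gave 0.38 and -0.49 log2 in these comparisons with scrambled shRNA. RPA3, the small subunit, ran opposite between the controls: it was higher with scrambled shRNA (0.25 log2, adjusted p = 0.0357), or 0.15 log2 without scrambled shRNA replicate 3 (adjusted p = 0.092), where its value was 11.77 against 11.42 and 11.50 in the other arrays of that group. That call also ended without empty vector replicate 2 or 3 (up to 0.24 log2, adjusted p 0.0826 to 0.121 over the 3 arrays). RPA2 passed in no comparison, at -0.037 log2 with knockdown, or -0.12 without scrambled shRNA replicate 3.

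The knockdown and control comparisons above share the scrambled shRNA arrays, so a gene that is low or high there gives differences of opposite sign in both. GINS3, RRM2 and CCNE2, called higher with scrambled shRNA than with empty vector, were called lower with knockdown, and SLBP and RPA1 were called the other way in both. Against empty vector, which does not use those arrays, knockdown gave -0.12 log2 for GINS3, -0.28 for RRM2, -0.20 for CCNE2, -0.24 for SLBP and -0.031 for RPA1, of which RRM2 and SLBP passed. Other probe sets of these genes gave -0.28 log2 for GINS3, -0.14 for RRM2, -0.44 for CCNE2 and -0.11 for RPA1.

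Without scrambled shRNA replicate 3, the array that stood apart, knockdown against scrambled shRNA gave 1 member that rose and 5 that fell (12.3% of all genes called). RPA1 rose by 0.26 log2, and RRM2 (-0.46), GINS3 (-0.46), CCNE2 (-0.39), CDC45 (-0.21) and the clamp loader gene RFC2 (-0.24) fell, so that SLBP left and RFC2 joined. Scrambled shRNA against empty vector then gave 1 higher and 8 lower members (26.6% of all genes called): CCNE2, RRM2, RPA3 and POLE2 no longer passed, and RFC5 (-0.24 log2), UNG (-0.22) and the histone chaperone gene ASF1B (-0.25) did. With overexpression the single call became 3 (8.86% of all genes called), GINS3 with 0.31 log2 being joined by MCM10 with -0.27 (limma adjusted p = 0.0174) and SLBP with -0.20 (adjusted p = 0.0478). Knockdown against empty vector went from 2 to 4 lower members, RRM2 and SLBP being joined by MCM10 (-0.28 log2) and POLA2 (-0.22). These fits change the shared estimate of the spread for every group.

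Of the polymerases, POLA2, the regulatory subunit of polymerase alpha, differed between the controls. It read 9.12, 9.08 and 9.16 in the empty vector arrays, 8.95, 8.95 and 8.89 in the overexpression arrays, 8.80, 8.64 and 8.83 in the scrambled shRNA arrays and 8.89, 8.91 and 8.91 in the knockdown arrays. All empty vector arrays lay above the other 9 and all scrambled shRNA arrays below them. POLA2 was 1.28-fold lower with scrambled shRNA (-0.36 log2, SE 0.061, 95% interval -0.49 to -0.23, limma adjusted p = 0.00106), with -0.19 log2, adjusted p = 0.0887 for overexpression and 0.15 log2, adjusted p = 0.14 for knockdown. POLE2, a subunit of polymerase epsilon, was lower with scrambled shRNA (-0.19 log2, adjusted p = 0.0405), a call that ended without any of 7 arrays: empty vector replicates 1 and 2, overexpression replicate 1, scrambled shRNA replicates 1, 2 and 3 and knockdown replicate 3 (-0.20 to -0.16 log2, adjusted p 0.0508 to 0.145). POLA1, POLD1, POLE and the primase genes PRIM1 and PRIM2 passed in no comparison. Without scrambled shRNA replicate 3, the knockdown difference went from -0.13 to -0.073 log2 for POLD1 and from -0.27 to -0.15 log2 for PRIM2, and that of PRIM1 turned from 0.13 to -0.027 log2. PRIM1 had 1 low array: scrambled shRNA replicate 3 read 10.64, while the 11 others ran from 10.94 to 11.15.

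None of the 10 licensing genes passed in any comparison. MCM2, a helicase subunit, had the lowest p of them over the 4 groups (adjusted p = 0.16 in limma), with means of 10.47 ± 0.035 with the empty vector, 10.49 ± 0.10 with overexpressed CXXC5, 10.49 ± 0.058 with the scrambled shRNA and 10.33 ± 0.033 with CXXC5 knockdown (SD, n = 3). Its knockdown difference was -0.16 log2 (95% interval -0.29 to -0.018), the same side of 0 as MCM5 (-0.22) and MCM7 (-0.12), while MCM3 gave 0.13, MCM4 0.033 and MCM6 0.021 log2. The 6 subunits of the helicase ring thus lay on both sides of 0. The loaders CDC6 and CDT1 gave 0.11 and -0.30 log2, and the origin recognition genes ORC1 and ORC6 0.055 and -0.11 log2. Without scrambled shRNA replicate 3 the knockdown difference was -0.12 log2 for CDT1, -0.035 for ORC6 and 0.011 for MCM4, and ORC1 turned to -0.0057 log2. Scrambled shRNA replicate 3 gave CDT1 a value of 9.51, while the 11 others ran from 8.76 to 9.10. With overexpression the 10 licensing genes lay between -0.16 and 0.096 log2.

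In the clamp and clamp loader role, PCNA and RFC1 to RFC5 passed in no comparison of groups. PCNA, the sliding clamp, had means of 12.32 ± 0.058 with the empty vector, 12.29 ± 0.041 with overexpressed CXXC5, 12.17 ± 0.13 with the scrambled shRNA and 12.25 ± 0.037 with CXXC5 knockdown (SD, n = 3). Knockdown gave PCNA 0.081 log2, or 0.0098 without scrambled shRNA replicate 3. The median of the 6 genes on scrambled shRNA replicate 3 was -0.235 log2 from their own means, and the part of that array's RNA or labelling quality in this was not tested. RFC5 passed for the difference of the effects alone (-0.35 log2, adjusted p = 0.0382), a call that ended without any of 9 arrays, all but empty vector replicate 3, overexpression replicate 2 and scrambled shRNA replicate 3 (-0.36 to -0.28 log2, adjusted p 0.0522 to 0.0873), and its other probe sets gave -0.38 and 0.07 log2. Both values lean on scrambled shRNA replicate 3: without it the knockdown differences of these sets went from 0.26 to 0.017 and from -0.14 to -0.0072 log2. Of Okazaki fragment processing and repair, FEN1, LIG1 and UNG passed in none. MSH6, a mismatch repair gene, was lower with scrambled shRNA (-0.20 log2, adjusted p = 0.0137), without passing when empty vector replicate 2 or scrambled shRNA replicate 2 was left out (-0.19 to -0.17 log2, adjusted p 0.0521 to 0.0525). The dimmest MSH6 probe set gave -0.17 log2 there, and the remaining set -0.79 log2, or -0.21 without scrambled shRNA replicate 3. The differences of the effects for POLE2 (-0.29 log2, adjusted p = 0.0431) and MSH6 (-0.23 log2, adjusted p = 0.0445) ended when single arrays were left out. For POLE2 these were 9 arrays, all but empty vector replicate 3, overexpression replicate 2 and knockdown replicate 2 (-0.30 to -0.24 log2, adjusted p 0.0544 to 0.106), and for MSH6 11 arrays, all but scrambled shRNA replicate 3 (-0.25 to -0.21 log2, adjusted p 0.0523 to 0.1).

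Across the 48 genes, the empty vector group mean was the highest of the 4 for 24 members (50%, against 23.5% of all genes) and the lowest for 1 (2.08%, against 28.6%). The knockdown mean was the lowest for 21 members (43.8%, against 19.8%). Against empty vector, knockdown was lower for 43 of 48 members (89.6%) and for 46% of all genes, with a median of -0.076 log2 for members and 0.013 for all genes, and 2 of the 43 passed. Groups did not overlap for 39.6% of members in that comparison and for 30% of all genes. Overexpression and scrambled shRNA each also lay below empty vector for 32 of 48 members (66.7%), against 49.5% and 47.2% of all genes. In the further lists below, knockdown was lower than empty vector for 72.7% of replication factors and 71.4% of checkpoint genes. The share was 50% of RB, E2F and cyclin-CDK genes and 34.5% of G2/M genes. By array, the median of the members' departures from their own means was 0.066, 0.065 and -0.0032 log2 with empty vector, 0.023, 0.021 and -0.035 with overexpression, 0.0063, -0.017 and -0.020 with scrambled shRNA and -0.037, -0.020 and -0.038 with knockdown. Empty vector replicates 1 and 2 were the high arrays, and empty vector replicate 3 lay within the range of the overexpression arrays. In these bulk samples, fewer cells in S phase and less RNA of these genes per cell cannot be told apart.

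**Figure D5:**
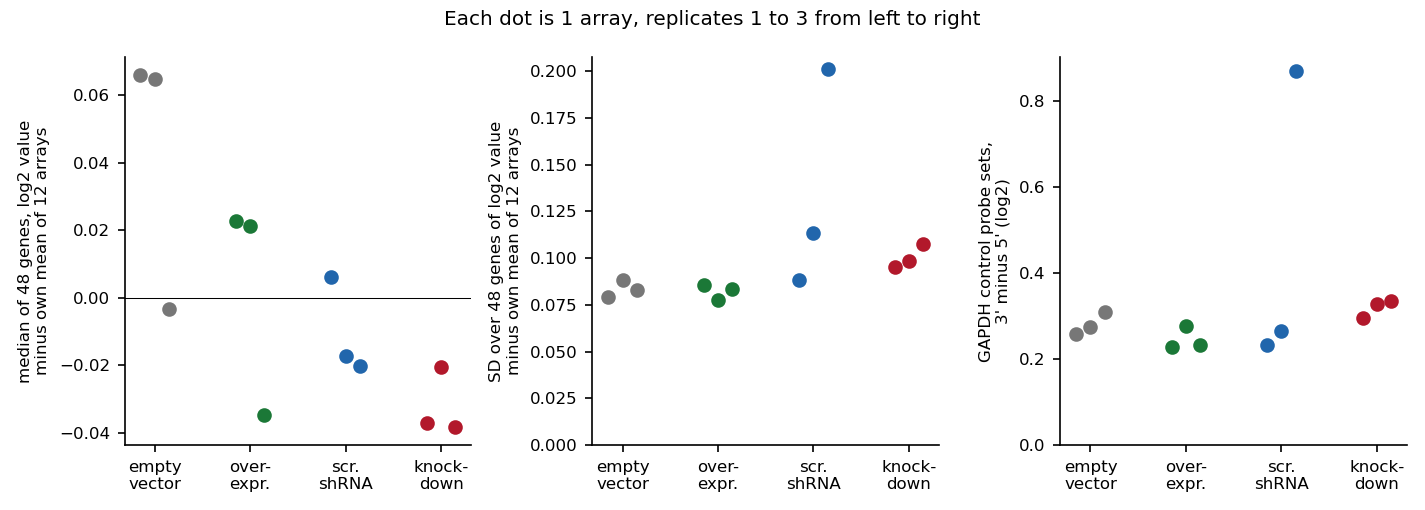
Each dot is 1 array. The left panel gives the median and the middle panel the SD, in log2, of the 48 members' values minus each gene's mean over 12 arrays, and the right panel the 3′ minus 5′ difference of the GAPDH control probe sets in log2. Medians are 0.066 and 0.065 for empty vector replicates 1 and 2 and lie between -0.038 and 0.023 on the other 10 arrays, and scrambled shRNA replicate 3 is the highest array in the middle and right panels.

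Other genes of the same pathways were read from further lists. Of 33 measured further replication factors, none rose and 1 fell with overexpression (3.03%, against 6.98% of all genes), and 3 rose and none fell with knockdown against scrambled shRNA (9.09%, against 14%). Between the controls 2 were higher and 9 lower with scrambled shRNA (33.3%, against 31.5%), and 1 was lower with knockdown than with empty vector (3.03%, against 4.54%). The gene that fell with overexpression was DCK, deoxycytidine kinase of the salvage pathway (-0.34 log2, adjusted p = 0.0101). DCK also rose with knockdown against scrambled shRNA (0.42 log2, adjusted p = 0.00158), as did the mitochondrial thymidine kinase TK2 (0.43 log2, adjusted p = 0.0244) and CTP synthase CTPS1 (0.38 log2, adjusted p = 0.00686). All 3 were lower with scrambled shRNA than with empty vector, by limma differences of -0.55, -0.50 and -0.43 log2 that passed, and knockdown against empty vector gave -0.14, -0.071 and -0.049 log2, none of which passed. The knockdown call of TK2 ended without scrambled shRNA replicate 3 (0.43 log2, adjusted p = 0.0646). SAMHD1, which breaks down deoxynucleotides, was lower than empty vector both with scrambled shRNA (-0.74 log2, adjusted p = 0.000304) and with knockdown (-0.48 log2, adjusted p = 0.0257).

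Of 28 measured genes of RB, E2F and cyclin-CDK control, 2 rose and none fell with overexpression (7.14%, against 6.98% of all genes), and 3 rose and 3 fell with knockdown against scrambled shRNA (21.4%, against 14%). Between the controls 5 were higher and 5 lower with scrambled shRNA (35.7%, against 31.5%), and with knockdown 2 were higher and 1 lower than with empty vector (10.7%, against 4.54%). CDKN1A, which encodes the cyclin kinase inhibitor p21, rose with overexpression (0.53 log2, adjusted p = 0.00155) and fell with knockdown against scrambled shRNA (-0.84 log2, adjusted p = 3.67e-05). It was higher with scrambled shRNA than with empty vector by 1.18 log2 (adjusted p = 1.32e-06), and knockdown lay above empty vector (0.33 log2, adjusted p = 0.0344). The inhibitor CDKN2D rose with overexpression (0.55 log2, adjusted p = 0.0105) and fell with knockdown (-0.52 log2, adjusted p = 0.00791), with 0.59 log2 between the controls, which passed, and 0.071 log2 for knockdown against empty vector, which did not. CDKN1C fell with knockdown (-0.32 log2, adjusted p = 0.0299), a call that ended without scrambled shRNA replicate 3 (-0.25 log2, adjusted p = 0.0985), and it was higher than empty vector with scrambled shRNA (0.90 log2) and with knockdown (0.58 log2), both past the threshold.

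In the same list E2F5 (0.58 log2, adjusted p = 0.0273), cyclin D3, CCND3 (0.49 log2, adjusted p = 0.000533), and the inhibitor CDKN1B (0.26 log2, adjusted p = 0.00847) rose with knockdown against scrambled shRNA. E2F5 and CCND3 were lower with scrambled shRNA than with empty vector by differences of -0.63 and -0.47 log2 that passed, and knockdown against empty vector gave -0.047 and 0.022 log2 without passing. The knockdown difference of E2F5 without scrambled shRNA replicate 3 was 0.33 log2, adjusted p = 0.00608. CDKN1B passed neither between the controls (-0.14 log2) nor for knockdown against empty vector (0.12 log2).

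Of 14 measured S phase checkpoint and fork repair genes none passed with overexpression (against 6.98% of all genes). In limma 4 had an unadjusted p under 0.05 there, beside 2442 of 11963 genes. With knockdown against scrambled shRNA 1 rose and 1 fell (14.3%, against 14% of all genes). The checkpoint kinase ATR rose (0.31 log2, adjusted p = 0.0109) and the helicase BLM fell (-0.21 log2, adjusted p = 0.0206). Between the controls they gave -0.23 and 0.26 log2, both past the threshold, and for knockdown against empty vector 0.078 and 0.043 log2, neither of which passed. Of 29 G2/M genes none passed with overexpression (against 6.98%), and 4 had an unadjusted p under 0.05 (2442 of 11963 genes). With knockdown against scrambled shRNA 4 rose and 1 fell (17.2%, against 14%). Between the controls 4 were higher and 6 lower with scrambled shRNA than with empty vector (34.5%, against 31.5%). None passed for knockdown against empty vector (against 4.54%), where 2 had an unadjusted p under 0.05 (2742 of 11963 genes). The genes called with knockdown against scrambled shRNA were CDC20 (0.36 log2), CCNB1 (0.26), BUB1 (0.24) and CENPF (0.23), which rose, and TTK (-0.20), which fell. Scrambled shRNA against empty vector gave -0.38, -0.28, -0.24 and 0.24 log2 for CDC20, CCNB1, BUB1 and TTK, all past the threshold, and -0.088 log2 for CENPF, which did not pass. Against empty vector the knockdown differences were -0.014, -0.016, 0.0039, 0.038 and 0.14 log2 in that order. Leaving out scrambled shRNA replicate 3, the knockdown calls of BUB1 (0.22 log2, adjusted p = 0.0926), CENPF (0.22 log2, adjusted p = 0.102) and TTK (-0.21 log2, adjusted p = 0.0557) ended, which leaves 2 that rose.

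Over the 4 groups the F test passed for 30.3% of the further replication factors, 42.9% of the RB, E2F and cyclin-CDK genes, 21.4% of the checkpoint genes and 24.1% of the G2/M genes, beside 18.8% of the 48 members and 33.2% of all genes.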

How the data were processed

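RNA of 12 K562 samples was measured on 1 array each, in 4 groups of 3 taken from the labels. The authors deposited a table of log2 values for each array, running from 2.07 to 14.4. That these are log2 was inferred from their range, as no header states it. Per the submitters' processing notes the software was Affymetrix Expression Console, with version and method not given in the sources used here. Scanner files, detection calls and batches were not used here. Arrays have no read depth, so precision is limited by how many there are.

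Of 22277 probe sets, 62 controls were left out, and 19064 had 1 symbol, 1043 several and 2108 none in the platform's annotation. Symbols were looked up by gene identifier in RefSeq (19052 matched, 0 changed). Each of 11963 genes took its probe set with the highest mean. limma 3.58.1 in R 4.3.3 (lmFit, eBayes) fitted 1 coefficient per group over 12 arrays, with 8 residual degrees of freedom. Tests were two-sided, with Benjamini-Hochberg adjustment over all genes and a threshold of 0.05. Simulated data with known changes served to test the fit. No pair of arrays within a group held the same values.

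Named in full are most members past a threshold, and the member with the lowest p over the 4 groups in a role where none passed. POLE2, RFC5, RPA3 and MSH6, which passed, are given by differences without group means. Group means of PCNA, RRM1 and E2F1, which passed in no comparison, were added outside this rule. Other members are given by values. PRIM1, CDT1 and the further genes were singled out after their values were seen. The members, the lists and the tests were chosen with earlier results of these data known. Alternatives were other scalings, filters, probe set rules, priors, weights, thresholds, a 6-array fit, a replicate block and leaving out each array. Promoters were searched by exact letters, and figures were drawn with matplotlib 3.10.9.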

Additional observations from a re-analysis of the deposited data

How the results depend on the processing

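Of 38 calls of single members, 18 held in every alternative run, among them GINS3 and RRM2 for knockdown, MCM10, POLA2, RPA1 and SLBP for scrambled shRNA against empty vector, and these 6 genes with CCNE2 over the 4 groups. Of 779 values of these calls under alternatives, 634 kept direction and side of the threshold, 144 lost the threshold and 1 reversed. The reversal was CCNE2 for scrambled shRNA against empty vector, at -0.21 log2 (adjusted p = 0.119) with the mean of all probe sets. The array number limits all counts: leaving out each array in turn gave 0 to 3 called members for overexpression, 4 to 6 for knockdown, 6 to 11 for scrambled shRNA against empty vector, 0 to 4 for knockdown against empty vector, 7 to 11 for the difference of the effects and 7 to 12 over the 4 groups. Overexpression, with 1 call, gave 2 with quantile normalization (1 each way), 4 after leaving out the lowest 40% of genes by mean, 3 with a trended robust prior and 4 with array weights. At a threshold of 0.01 it gave 0 and at 0.1 it gave 4. A fit on 6 arrays gave 0. Knockdown, with 6, gave 10 with array weights, 3 at 0.01 and 3 on 6 arrays. Its split of 2 higher and 4 lower became 2 and 7 with quantile normalization and 1 and 6 with median centring. Scrambled shRNA against empty vector, with 10, gave 4 at 0.01 and 5 on 6 arrays, and its split of 4 and 6 became 3 and 7 with quantile normalization. Knockdown against empty vector, with 2, gave 1 with median centring, 1 without probe sets of shared transcripts (suffixes _x and _s), 4 without the lowest genes, 4 with the trended robust prior, 7 with weights, 0 at 0.01, 4 at 0.1 and 0 on 6 arrays. The difference of the effects, with 10, gave 5 at 0.01. Over the 4 groups, the 9 calls became 15 without the lowest genes, 19 with the trended robust prior, 16 with weights and 17 at 0.1. The share of all genes called changes with the alternative as well. For overexpression it was 6.98% on 12 arrays and 8.86% without scrambled shRNA replicate 3. These counts of members alone therefore do not say how the members stood against all genes in each alternative. The causes were not tested. Equal replicate numbers were not taken as pairs, since 8 of 18 same-number correlations did not exceed 0.1 (range -0.115 to 0.395), although the own number was best in 17 of 36 cases. With a replicate block the counts were 2, 6, 10, 2, 8 and 8, in the order above, and 4 calls missed the threshold: SLBP for knockdown against empty vector (adjusted p = 0.0594), RFC5 (0.0513) and MSH6 (0.0514) for the difference of the effects and CCNE1 over the 4 groups (0.0517).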
